A study of Mus musculus with 74 samples.

Results

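Integrins are cell surface receptors made of an alpha chain and a beta chain that together bind the extracellular matrix and connect it to the actin or keratin cytoskeleton. Which matrix protein a cell can hold depends largely on the alpha chain: the products of Itga1 and Itga2 bind collagen, those of Itga3 and Itga6 bind laminin, and those of Itga5, Itga8 and Itgav bind ligands with an RGD sequence such as fibronectin, nephronectin and vitronectin, while the product of Itga9 binds tenascin C and osteopontin. Itgb1 encodes the beta chain shared by all of these alpha chains, and Itgb4 encodes the partner of the Itga6 product in the hemidesmosome, the junction that ties basal epithelium to laminin.

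The 10 genes described here (Itga1, Itga2, Itga3, Itga5, Itga6, Itga8, Itga9, Itgav, Itgb1 and Itgb4) were taken by name as the matrix-binding integrins. Earlier results of these data were known when they were chosen. All 10 had a group mean for PT (primary mammary tumour) and for Lung met (lung metastasis) in each of 5 tables, which held between 17270 and 19320 genes with both means.

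The study sequenced RNA of both tissues in 6 mouse models, with 74 samples. Her2 mice carry the rat neu proto-oncogene under the mouse mammary tumour virus (MMTV) promoter, C3Tag mice carry the simian virus large T antigen under the C3(1) promoter, and both lines have the FVB background. The PyMT-F1 models are daughters of FVB males that carry the polyoma middle T antigen under the MMTV promoter (PyMT) and of females of another strain, here BALB/cJ (BALB), SEA/GnJ (SEAGN) and AKR/J. By the sample titles, 6 PT and 6 Lung met samples belong to each model, apart from 7 and 7 in C3Tag. The strain given in the genotype field of several PyMT-F1 samples contradicts the title. In the Her2 and C3Tag models, tumours of animals with a single lesion were resected and the animals aged further. The PyMT-F1 animals were aged to the humane endpoint. All tumours of 1 animal were combined, and the metastases were taken from lungs as bulk tissue. The FVB Myc samples are not analysed here. The table deposited under the name AKR is called AKR-named below because it may hold a different PyMT-F1 cross. For the integrin genes looked up, its ratios are those that a supplementary list of the study gives for the cross with C57BL/6J females, and totals are therefore given with and without it.

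Each table gives 1 mean of normalized counts per tissue and gene and no value of a single sample. The spread between animals and the depth of the samples are unknown, so no difference below could be set against replicate error, no test was made, and "higher" and "lower" give the direction of the authors' means only. A gene was counted as past 1.5-fold when the Lung met mean was at least 1.5 times the PT mean, or the PT mean at least 1.5 times the Lung met mean. By table, between 5.42% (Her2) and 14.0% (C3Tag) of all genes were higher by that fold, and between 3.62% (Her2) and 8.32% (SEAGN) lower. Counts over gene lists are to be read beside these shares. Tables were normalized separately, so means are compared within a table. In bulk tissue, fewer cells of a type and less RNA per cell cannot be told apart.

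The collagen receptor genes Itga1 and Itga2 were higher in Lung met than in PT in all 5 tables. Itga2 had the highest mean log2 ratio of the 10 genes, 1.15 over the tables. Its mean was 159 in PT and 348 in Lung met of Her2, a ratio of 2.19. In C3Tag the corresponding means were 790 and 5787, a ratio of 7.33, and 99.2% of the genes of that table had a lower log2 ratio than Itga2. In SEAGN the means were 50.4 and 101, a ratio of 2.01. The distance between tissues was smaller in BALB, with 75.7 in PT and 98.5 in Lung met, and in the AKR-named table, with 327 and 418, and neither reached 1.5-fold. Itga2 was therefore past 1.5-fold in 3 of 5 tables, with C3Tag far above the others.

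Itga1 was also past 1.5-fold in 3 tables, though not in the same 3. Its means in PT and Lung met were 508 and 1247 in C3Tag (ratio 2.45), 503 and 980 in the AKR-named table (ratio 1.95) and 136 and 249 in SEAGN (ratio 1.83). In Her2 they were 1194 and 1530, and in BALB 195 and 212, close to each other. Among the collagen ligands fixed on the list of matrix ligands, Col1a1, the alpha 1 chain of fibrillar type I collagen and the list gene with the lowest mean log2 ratio, had a mean of 3457 in PT and 1369 in Lung met of Her2, and of 7343 and 1047 in SEAGN. Its log2 ratio was below 0 in all 5 tables, from -2.81 in SEAGN to -0.62 in C3Tag. Col4a1, a chain of the basement membrane collagen IV that the Itga1 product also binds, was named after its values were seen and had a ratio of 1.20 in Her2, 2.93 in C3Tag, 1.25 in BALB, 0.952 in SEAGN and 2.76 in the AKR-named table. The collagen ligands thus differed in direction from each other.

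**Figure D1:**
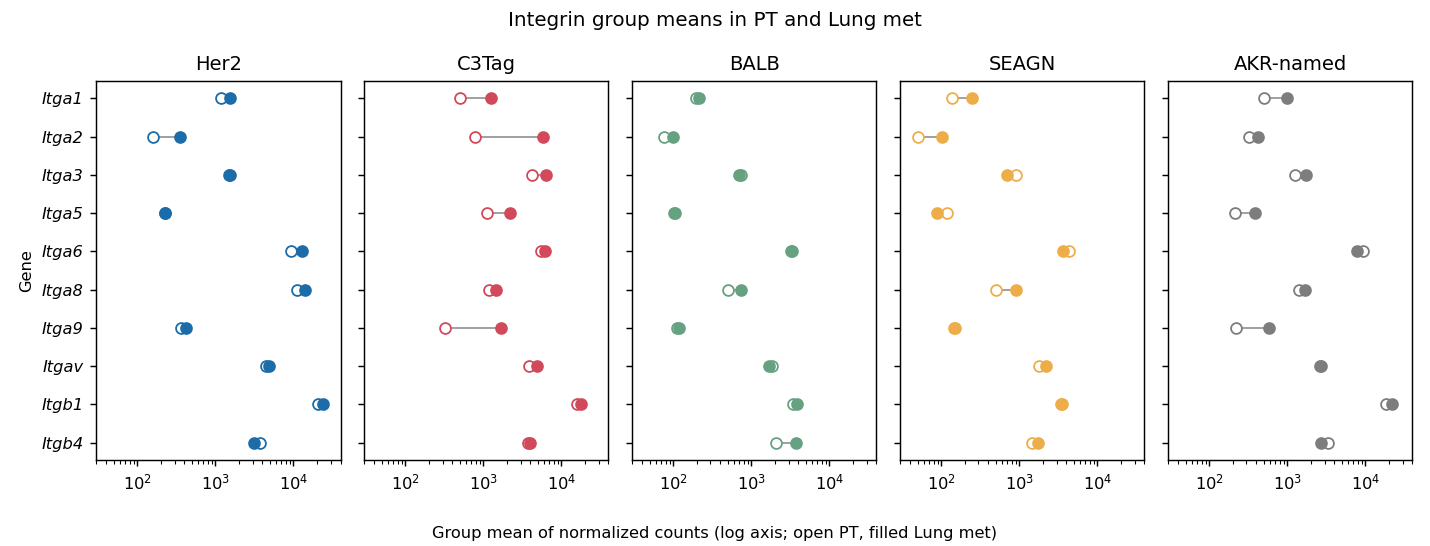
Group mean of normalized counts (horizontal log axis) of the 10 integrin genes in PT (open circles) and Lung met (filled circles), with 1 panel per table and no error bars because each group has 1 deposited mean. The widest distances are those of Itga2 (790 to 5787) and Itga9 (321 to 1691) in C3Tag, whereas the circles of Itgb1 nearly coincide in each panel.

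Itga1 and Itga2 lie next to each other on the minus strand of chromosome 13, with 20995 bases between the end of Itga1 and the start of Itga2 in the GENCODE M21 annotation of GRCm38. Their promoters are shown because the 2 neighbours were both higher in Lung met in every table, beside that of Itga5, which was higher in some tables and lower in others. Each window holds the 250 bases before the RefSeq start (GRCm38.p6), 5′ to 3′ on the minus strand: chr13:115101965-115102214 for Itga1, chr13:114932101-114932350 for Itga2 and chr15:103366792-103367041 for Itga5. Capitals mark the GC box GGGCGG, a binding motif of Sp family factors, on either strand.
Itga1: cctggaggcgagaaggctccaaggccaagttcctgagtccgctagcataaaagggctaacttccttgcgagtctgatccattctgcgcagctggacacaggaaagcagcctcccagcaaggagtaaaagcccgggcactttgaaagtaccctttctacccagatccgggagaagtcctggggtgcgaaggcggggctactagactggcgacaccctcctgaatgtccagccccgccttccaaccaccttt
Itga2: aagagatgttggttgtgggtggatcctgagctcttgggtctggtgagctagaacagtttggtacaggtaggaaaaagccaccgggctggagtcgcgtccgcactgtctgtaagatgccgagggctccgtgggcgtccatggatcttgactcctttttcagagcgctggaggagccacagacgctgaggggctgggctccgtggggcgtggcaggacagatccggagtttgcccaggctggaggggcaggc
Itga5: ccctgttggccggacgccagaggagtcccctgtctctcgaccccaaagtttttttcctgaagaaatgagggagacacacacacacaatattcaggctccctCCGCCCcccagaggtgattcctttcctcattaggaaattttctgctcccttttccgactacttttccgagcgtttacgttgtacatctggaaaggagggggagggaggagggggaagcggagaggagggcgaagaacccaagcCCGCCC
The windows of Itga1 and Itga2 hold no GC box, while that of Itga5 holds 2, both on the reverse strand as CCGCCC. Of 32851 promoter windows of this length, 32.7% held at least 1 GC box. The AP-1 motif TGANTCA (6.75% of windows) and the TATA box TATAAA (12.4%), searched on both strands, did not occur in any of the 3 windows. Windows of 8 of the 10 genes were found. Those of Itga8 and Itgav also lack the GC box, and that of Itgb1 holds it. Itga3 has 2 windows: chr11:95076715-95076964 overlaps the annotated gene and holds 3 GC boxes, and chr11:95069199-95069448 lies inside it and holds 1. The only window found for Itga9 also lies inside the annotated gene and is not described. These matches describe letters and not bound sites.

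Among the laminin receptor genes, Itga6 had a mean log2 ratio of 0.03 over the tables, the lowest of the 10 genes. It was higher in Lung met of Her2, where its mean was 9212 in PT and 12683 in Lung met, and of C3Tag, with 5433 and 6157. It was lower in the 3 PyMT-F1 tables, with means of 3303 and 3240 in BALB, 4302 and 3675 in SEAGN and 9307 and 7883 in the AKR-named table. None of these distances reached 1.5-fold, and the BALB means were nearly level. The sign followed the division into FVB driver models and PyMT-F1 crosses, a division that was not tested. These groups also differ in oncogene, in resection and in stated fitting method, which cannot be told apart here.

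Itga3, the other laminin-binding alpha chain, was past 1.5-fold in C3Tag alone, with 4189 in PT and 6400 in Lung met (ratio 1.53). It was nearly level in Her2 (1479 and 1517) and BALB (731 and 688), lower in Lung met of SEAGN (905 and 699) and higher in the AKR-named table (1269 and 1736). Itgb4 was the only gene past 1.5-fold in BALB, where its mean was 2040 in PT and 3691 in Lung met (ratio 1.81). In SEAGN it was 1438 and 1759. The log2 ratio of Itgb4 was -0.28 in Her2, 0.08 in C3Tag and -0.27 in the AKR-named table, so that Itgb4 and its partner Itga6 had opposite signs in Her2, BALB and SEAGN and the same sign in the other tables.

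Of 6 hemidesmosome and tetraspanin genes fixed as a list, 5 or 6 were measured per table, and over the 28 gene and table pairs 4 were higher and 1 was lower by 1.5-fold. Col17a1, the transmembrane collagen of the hemidesmosome, named after its values were seen, had means of 139 in PT and 254 in Lung met of BALB and of 96.9 and 197 in SEAGN. In C3Tag it had means of 380 and 58.7, the 1 pair of the list that was lower. Col17a1 was not among the 5 genes of the list measured in all tables. Of these 5, Dst, which encodes a linker of hemidesmosomes to keratin, had the highest mean log2 ratio, 0.26. The tetraspanin gene Cd9 had the lowest, 0.08. The log2 ratio of Dst was 1.48 in C3Tag and 0.15 in Her2. It was -0.02 in BALB, -0.005 in SEAGN and -0.29 in the AKR-named table. Beside these values, the basal keratin gene Krt14 had a ratio of 2.12 in Her2, 0.352 in C3Tag, 2.18 in BALB, 1.74 in SEAGN and 0.909 in the AKR-named table. The direction of Krt14 was thus that of Itgb4 in BALB, SEAGN and the AKR-named table and not in Her2 and C3Tag. In Her2, where the log2 ratio of Itgb4 was -0.28, 4 of the 5 basal genes measured were 1.5-fold higher and 0 lower. The basal list was mixed within each of the other tables. The ratio of Krt17 was 0.569 in SEAGN and 2.14 in the AKR-named table, and that of Cnn1 0.607 in BALB and 1.72 in C3Tag. The part of basal cells in the Itgb4 values was not tested.

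**Figure D2:**
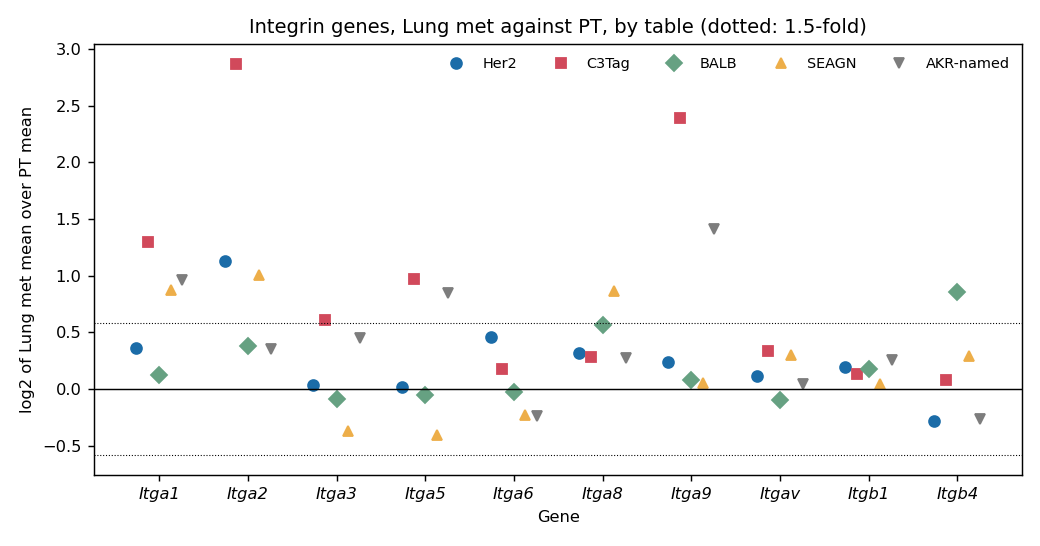
Log2 of the Lung met mean over the PT mean (vertical axis) for each of the 10 integrin genes, with 1 symbol per table, a solid line at equal means and dotted lines at 1.5-fold. No symbol lies under the lower dotted line, and the highest are Itga2 at 2.87 and Itga9 at 2.40, both in C3Tag.

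The laminin genes belong to a list of 21 matrix ligands, of which 20 or 21 were measured per table. Over 103 gene and table pairs, 25 were higher and 25 were lower by 1.5-fold, and the median log2 ratio of the list lay between -0.38 in SEAGN and 0.40 in C3Tag. Lama3, a chain of laminin-332 and a ligand of the Itga3 and Itga6 products, had the highest mean log2 ratio of the 19 genes measured in all tables, 1.36. Its means were 64.3 in PT and 299 in Lung met of Her2, 920 and 1947 in C3Tag, 165 and 310 in BALB, 127 and 344 in SEAGN and 207 and 457 in the AKR-named table. Lama3 was thus past 1.5-fold in all 5 tables. Of its receptor genes, Itga3 was so in C3Tag, Itgb4 in BALB, and Itga6 and Itgb1 in none.

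The RGD-binding alpha chains differed from each other. Itga8, whose product binds nephronectin, was higher in Lung met in all 5 tables and past 1.5-fold in SEAGN, where its mean was 501 in PT and 915 in Lung met (ratio 1.83). In BALB it stood just under that bound, with 497 and 736 (ratio 1.48). The ratios were 1.25 in Her2, 1.22 in C3Tag and 1.21 in the AKR-named table.

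Itga5, the alpha chain of the main fibronectin receptor, was past 1.5-fold in C3Tag, with means of 1130 and 2220, and in the AKR-named table, with 214 and 385. It was level in Her2 (225 and 228) and BALB (105 and 101), and its Lung met mean was below its PT mean in SEAGN, 88.7 against 118. Fn1, which encodes fibronectin and was named after its values were seen, had a ratio of 2.02 in Her2, 2.25 in C3Tag, 1.98 in BALB, 1.29 in SEAGN and 2.98 in the AKR-named table. Itgav stayed within 1.5-fold in all 5 tables, with log2 ratios from -0.10 in BALB to 0.33 in C3Tag.

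Itga9 was higher in Lung met in all 5 tables, but by very unequal amounts. In C3Tag its mean was 321 in PT and 1691 in Lung met (ratio 5.26), and the AKR-named means were 219 and 584 (ratio 2.66). In Her2 the means were 360 and 425, in BALB 111 and 117, and in SEAGN 145 and 150. Of its ligands, both named after their values were seen, Tnc (tenascin C) had a ratio of 1.77 in Her2 and of 0.445 in C3Tag, 0.582 in BALB, 0.286 in SEAGN and 0.605 in the AKR-named table. Spp1 (osteopontin) had means of 9047 in PT and 71448 in Lung met of Her2, a ratio of 7.90, and its ratio was 0.964 in C3Tag, 1.41 in BALB, 0.659 in SEAGN and 1.47 in the AKR-named table.

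Itgb1, the common beta chain, was past 1.5-fold in none of the 5 tables. Its means were 20560 in PT and 23559 in Lung met of Her2, 15976 and 17528 in C3Tag, 3422 and 3863 in BALB, 3451 and 3550 in SEAGN and 18524 and 22058 in the AKR-named table. The log2 ratio of Itgb1 thus lay between 0.04 and 0.25, always above 0.

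Counted by table, 1 of the 10 genes was at least 1.5-fold higher in Lung met of Her2, where 5.42% of all genes were. In C3Tag 5 of 10 were higher, against 14.0% of all genes. In BALB 1 of 10 was higher (6.20% of all genes), in SEAGN 3 of 10 (7.11%) and in the AKR-named data also 3 of 10 (13.6%). No integrin gene of the 10 was lower by 1.5-fold in any table, where the share of all genes was 3.62% in Her2, 5.61% in C3Tag, 6.76% in BALB, 8.32% in SEAGN and 6.32% in the AKR-named table. The count of 1 in Her2 and in BALB is near the share of all genes. Past 1.5-fold were 13 of the 50 pairs of gene and table, and 10 of 40 without the AKR-named table.

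The median log2 ratio of the 10 genes was 0.22 in Her2, 0.47 in C3Tag, 0.11 in BALB, 0.17 in SEAGN and 0.31 in the AKR-named table, beside medians of all genes no further than 0.03 from 0. Itga1, Itga2, Itga8, Itga9 and Itgb1 were higher in Lung met in all 5 tables, as were 11.6% of the 12317 genes common to them. Without the AKR-named table these 5 were again the genes higher in every table, beside 16.9% of 12527 common genes. None of the 10 was lower in every table.

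**Figure D3:**
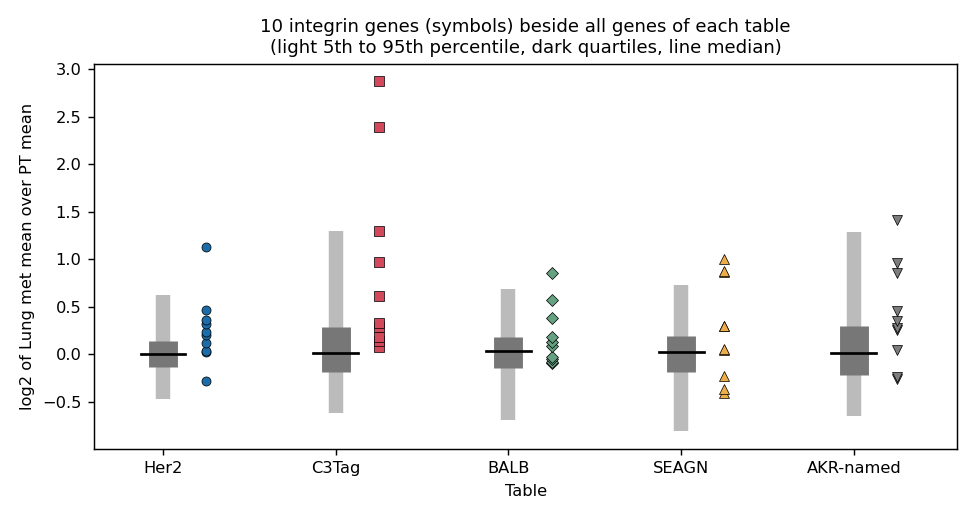
Log2 of the Lung met mean over the PT mean for the 10 integrin genes (symbols) beside all genes of each table (light bar from the 5th to the 95th percentile, dark bar for the quartiles, line at the median). Itga2 lies above the 95th percentile of Her2 (0.62), C3Tag (1.30) and SEAGN (0.73), and no integrin gene lies below the 5th percentile of its table.

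Levels of different genes were compared per kb of annotated exon (GENCODE M21), within a table. Itgb1 was the highest of the 10 genes in both tissues of all 5 tables, above 98.1% to 99.0% of genes with a length, although with the length of the longest transcript Itga6 stood above it in PT of SEAGN. Itga1 and Itga9 were low in PT of every table, above at most 38.6% and 33.7% of genes. Itga2 was likewise low in most groups, but in Lung met of C3Tag it stood above 93.1% of genes, where its PT level stood above 51.7%.

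The 8 alpha chains shared their summed level per kb unequally between models. In Her2, Itga8 made up 44.8% of the sum in PT and 44.6% in Lung met and Itga6 30.1% and 33.1%, an order that turned to 36.8% for Itga8 and 40.9% for Itga6 in PT with the longest transcript. In the other tables Itga8 held between 7.16% and 10.3% of the sum in PT. The level of Itga8 over that of Itgb1 does not depend on the scaling of a table, though annotation and stated fitting method also differed between tables. It was 0.301 in PT of Her2, 0.0415 in C3Tag, 0.0804 in BALB and in SEAGN, and 0.0416 in the AKR-named table. Among the PyMT-F1 tables the level of Itga6 over Itgb1 in PT also varied, from 0.227 in the AKR-named table to 0.436 in BALB and 0.564 in SEAGN. BALB and SEAGN are also the tables with BALB/cJ identifiers, while GENCODE M21 lengths were used for all. Npnt, which encodes nephronectin and is on the lists of matrix ligands and of lung alveolar fibroblast markers, had a mean of 41503 in PT and 42076 in Lung met of Her2, nearly level between the tissues. Divided by the mean of Itgb1, to compare tables, Npnt in PT came to 2.02 in Her2, 0.043 in C3Tag, 0.528 in BALB, 0.566 in SEAGN and 0.445 in the AKR-named table. Her2 thus had the highest value of both the receptor gene and the ligand gene relative to Itgb1, and whether it differs from the other models beyond the spread of animals was not tested.

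Itga6 was the first alpha chain of the PyMT-F1 tables with either length, at 46.5% of the sum in PT and 44.9% in Lung met of BALB, 51.6% and 44.2% in SEAGN and 56.2% and 45.4% in the AKR-named table. In C3Tag Itga3 came first with 32.4% in PT and 28.0% in Lung met, whereas with the longest transcript Itga6 did. The share of Itga2 in C3Tag was 4.88% in PT and 20.3% in Lung met, the widest distance between tissues for that gene, which kept at most 3.04% in Lung met of the other tables.

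**Figure D4:**
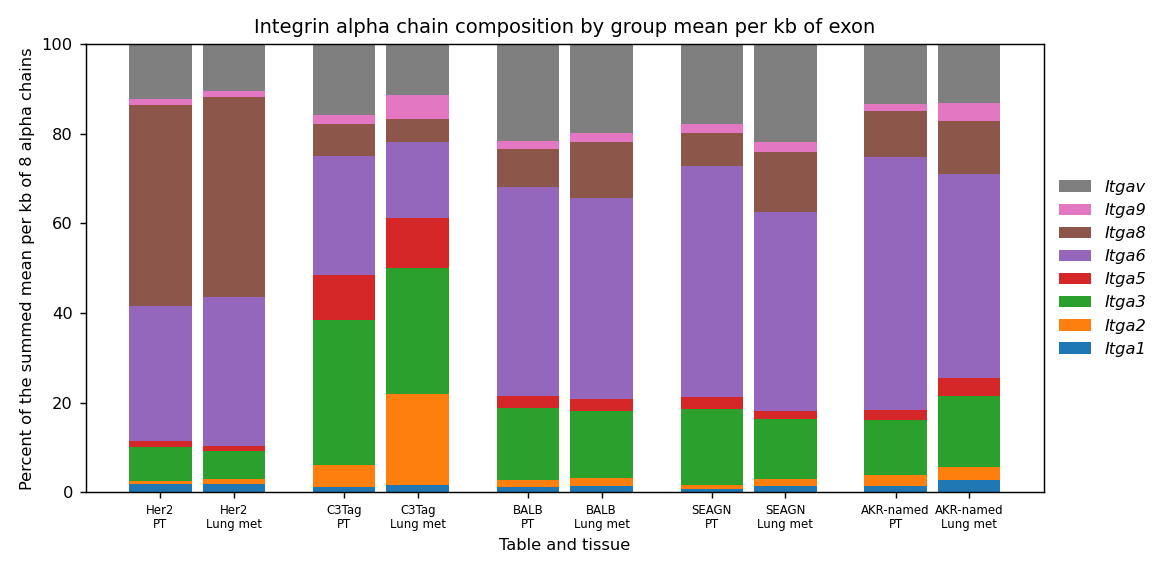
Percent of the summed group mean per kb of exon (vertical axis) held by each of the 8 integrin alpha chain genes in PT and Lung met of each table. Itga8 takes 44.8% and 44.6% of the Her2 bars, Itga6 is the largest part of the BALB, SEAGN and AKR-named bars, and Itga2 takes 4.88% of the PT bar and 20.3% of the Lung met bar of C3Tag.

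The other 17 integrin genes, most of them leukocyte or platelet receptors or alternative beta chains, were 1.5-fold higher in 31 and lower in 5 of the 77 gene and table pairs measured. Their median log2 ratio ran from 0.07 in SEAGN to 1.14 in C3Tag. Of the 13 measured in all tables, Itgb2, the beta chain of leukocyte integrins, had the highest mean log2 ratio, 1.34, with means of 434 in PT and 716 in Lung met of Her2 and of 468 and 1579 in C3Tag. Itgb8, a partner of the Itgav product, had the lowest, -0.33, with means of 3870 and 2193 in C3Tag. Itga7, Itga10 and Itga11 were named after their values were seen. Itga11, a collagen-binding alpha chain measured in 3 tables, had log2 ratios of -1.52 in Her2, -1.34 in C3Tag and -2.24 in BALB. Itga10, another collagen-binding alpha chain, had 0.28 in Her2, 0.80 in C3Tag and -0.58 in BALB. In SEAGN it had -0.02 and in the AKR-named table -0.59. Itga7, a laminin-binding alpha chain, had 0.28 in Her2, 1.76 in C3Tag and 0.29 in BALB. Its log2 ratio was 1.47 in SEAGN and 2.61 in the AKR-named table.

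The 20 genes of integrin activation and adhesion adaptors had a smaller share of pairs past 1.5-fold than the other integrins. Of 100 pairs 15 were higher and 2 lower, with medians between 0.04 and 0.38. By table, 5.42% to 14.0% of all genes were higher and 3.62% to 8.32% lower. Tns1, the gene of the adaptor tensin 1, had the highest mean log2 ratio, 1.56. Its means were 648 in PT and 1169 in Lung met of Her2 and 1338 and 8168 in C3Tag, and it was past 1.5-fold in every table. Fermt1, the gene of the epithelial integrin activator kindlin-1, had the lowest mean, -0.37, although its log2 ratio in Her2 was 0.38.

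Of 11796 genes with 1 symbol in each table and a mean of at least 10, the 5 whose log2 ratios lay nearest to those of Itga2 were Muc1, Fgf1, Lepr, Arsj and Osgin1, at Euclidean distances from 0.437 to 0.928 over the 5 tables. Muc1, an epithelial mucin gene, had log2 ratios of 1.32 in Her2, 2.87 in C3Tag, 0.63 in BALB, 0.70 in SEAGN and 0.37 in the AKR-named table. Nearest to Itga6 were Sh3bp2, Nudt17, Pld2, Phc3 and Fpgt, at distances from 0.191 to 0.234.

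Markers of lung and stromal cells also differed between the tissues. Ager, a defining marker of alveolar type 1 cells, had means of 62.5 in PT and 1847 in Lung met of Her2, and its ratio lay between 16.5 in BALB and 44.5 in the AKR-named table. Of the alveolar type 1 list 25 of 30 gene and table pairs were 1.5-fold higher and 1 was lower, with a sum over the 6 genes that ranged from 2319 to 57984 in PT and from 2999 to 56572 in Lung met. The upper ends are those of Her2, where Aqp5, a water channel gene of that list, had means of 57616 in PT and 52673 in Lung met. Of the alveolar type 2 list 11 of 15 were higher and 0 lower, and Sftpc, Sftpb and Sftpa1 of that list are not analysed here. Of the lung alveolar fibroblast list 9 of 13 were higher and 1 lower. Of the endothelial list 28 of 35 were 1.5-fold higher and 0 lower, and its sum lay between 919 and 3174 in PT and between 1517 and 8277 in Lung met. For the 7 endothelial genes, the sum in Lung met over that in PT was 1.67 in Her2, 3.03 in C3Tag and 1.65 in BALB. It was 1.78 in SEAGN and 3.76 in the AKR-named table. C3Tag and the AKR-named table, the 2 highest, also had the highest ratios of Itga1, Itga3, Itga5 and Itga9. The same was not so for Itga2, Itga6, Itga8, Itgav, Itgb1 and Itgb4. These 2 tables also had the largest shares of all genes 1.5-fold higher, 14.0% and 13.6%.

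At the same fold, the fibroblast list was lower in 23 of 35 pairs and higher in 4, with a sum between 9151 and 27716 in PT and between 2571 and 25008 in Lung met. Smooth muscle genes were higher in 8 and lower in 4 of 23 pairs, basal genes higher in 11 and lower in 6 of 23, and leukocyte genes higher in 9 and lower in 0 of 22. The luminal epithelial list was higher in 3 and lower in 4 of 29 pairs, with medians between -0.06 and 0.17 and sums between 14911 and 98679 in PT and between 15785 and 94994 in Lung met, so that epithelial RNA was present in both tissues of each table. All markers counted here had both means above 0, and the others are not analysed here. The part of these cell types in the integrin values was not tested.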

How the data were processed

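The labels name Trizol for the isolation of RNA, whereas the methods of the study name TriPure and a column kit. The labels name a stranded, ribosomal RNA-depleted total RNA kit, whereas the methods of the study name mRNA libraries. The submitters' processing notes name STAR 2.7.8a, DESeq2 and mm39, while the methods name Partek Flow, with Gene Specific Analysis for Her2 and C3Tag and DESeq2 for the PyMT-F1 models, and older builds. The identifiers of the BALB and SEAGN tables are those of the BALB/cJ annotation. The signal used here is the mean of normalized counts that the authors deposited under the heading LSMean, 1 for each tissue and gene. It comes with neither an SD nor an n. The normalization and the unit of 1 read are not given in the sources used here. The remaining columns hold the authors' p-values, FDR, ratios and fold changes of Lung met against PT, which were not used. The Myc table holds p-values and FDR alone and is not analysed here.

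From these means the ratio of Lung met to PT and its log2 were computed for every gene with both means above 0 (Python 3.11.15, pandas 2.3.3, numpy 2.4.6). A call was a ratio of at least 1.5 either way, without a test. Genes were joined between tables by a symbol occurring once in each. Lengths are the union of annotated exons of GENCODE M21. The alternatives were a fold of 2, genes with a mean of at least 10, 1 added to both means, centring on the median gene and the longest transcript. The tables without the AKR-named one were an alternative chosen after seeing the data. The genes named from each list are those with the highest and lowest mean log2 ratio, together with the 10 integrins, the 5 genes nearest to the integrin with the highest and with the lowest mean log2 ratio, and the markers. The integrin genes and lists were chosen with earlier results of these data known. The matched tumour and metastasis of an animal could not be paired in means.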

Additional observations from a re-analysis of the deposited data

How the results depend on the processing

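All 100 recomputed log2 ratios of the single integrin genes (1 added to both means, or the median gene subtracted) kept their sign and their side of 1.5-fold, and the medians and the 5 genes higher in every table did so too. The median subtracted lay between -0.00 and 0.03, and the lowest group mean of the 10 integrin genes was 50.4. These 2 alternatives could therefore move the ratios only slightly, and the unchanged signs say little about other processing. With a fold of 2 the integrins past the threshold numbered 3 in C3Tag, 0 in BALB, 1 in SEAGN and 1 in the AKR-named table, and 1 in Her2 as before. The shares of all genes at least 2-fold higher were 7.42% in C3Tag, 2.26% in BALB, 2.86% in SEAGN, 7.31% in the AKR-named table and 2.38% in Her2, so the AKR-named count of 1 in 10 is near its share. By table, between 1.43% (Her2) and 3.22% (SEAGN) of all genes were at least 2-fold lower. At that fold the pairs past the threshold were 23 for the other integrins and 34 for the matrix ligands, from 36 and 50. They were 8 for the activators and adaptors and 3 for the hemidesmosome list, from 17 and 5. These counts follow from the stricter fold itself. No paired analysis was possible because the tables hold only group means, and for the same reason no replicate could be left out. The depth, and with it what low means can show, is unknown.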
